A study of Mus with 15 samples.

Results

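Plasminogen activation and the control of clotting were followed in transplanted mouse fat through 9 genes, out of the 55471 genes of the deposited matrix. The genes were taken by their symbol: Plau, Plat, Plaur, Serpine2, Serpinb2, F3, Tfpi, Tfpi2 and Thbd. Each symbol matched 1 row of the matrix, and all 9 rows passed the filter on low counts, which left 16051 genes to test. The study sequenced mRNA of adipose tissue from wild-type C57BL/6 mice aged 7 weeks. Control adipose tissue and grafts taken at day 3 or at day 7 gave 5 samples each. All 3 groups had the same strain, genotype and age in the labels, and no drug, transgene or deletion was named for any of them. The labels do not say which depot the fat came from, where it was placed, or whether the samples of a group came from separate mice. The p-values therefore measure the spread between these samples, which may be technical in part.

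Plasmin is the protease that dissolves fibrin clots and opens the matrix around moving cells. It is cut from plasminogen, a liver-made blood protein, by urokinase (Plau) or by the tissue-type activator (Plat). Urokinase is held at the cell surface by its receptor (Plaur), and serpins such as Serpine2 (protease nexin) and Serpinb2 trap the activators. Clotting starts when tissue factor (F3) meets factor VII of the blood. Tissue factor pathway inhibitor (Tfpi) blocks that first complex, its relative Tfpi2 inhibits plasmin and other matrix proteases, and thrombomodulin (Thbd) on endothelial cells turns thrombin towards activating the anticoagulant protein C. Macrophages, fibroblasts and vessel cells of wounded tissue are known sources of several of these proteins.

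Libraries held 17109216 to 31845173 estimated counts in controls, 23736037 to 29366860 at day 3 and 20192200 to 31997959 at day 7. Mitochondrial genes took 9.01% to 14.9% of the counts in controls, 2.35% to 4.02% at day 3 and 2.17% to 2.89% at day 7. The tissue label was checked against 8 adipocyte markers: all 8 were detected in each group, and their summed level was 10827 to 34210 CPM (counts in a library brought to the same scaled size as all others) in controls, 1658 to 6283 CPM at day 3 and 1022 to 2331 CPM at day 7. The 10 macrophage markers summed to 1445 to 3998 CPM in controls, 5369 to 12152 CPM at day 3 and 9692 to 13970 CPM at day 7, and all 10 rose at both times. All 6 platelet markers were detected, and their sum was 16.7 to 49.2 CPM in controls, 496 to 1698 CPM at day 3 and 198 to 902 CPM at day 7, carried mainly by Pf4 and Ppbp, the platelet chemokine genes. Of the 4 platelet markers tested, 2 rose at each time and 1 fell at day 7. The 8 fibroblast markers summed to 1063 to 4321 CPM in controls, 7534 to 15620 CPM at day 3 and 16821 to 20713 CPM at day 7, with 5 and 6 of them higher at these times and 1 lower at day 7. The 6 lymph node markers all fell, from 103 to 1722 CPM in controls to 0.972 to 4.02 CPM at day 3 and 3.67 to 9.40 CPM at day 7. Several libraries stood apart from their groups in the markers. Control 4 had a lymph node marker sum of 103 CPM against 949 to 1722 CPM in the other controls, control 5 had the highest macrophage sum of the controls, and day 7 graft 5 had a mural cell sum of 356 CPM against 1148 to 1297 CPM in the other day 7 grafts. The skeletal muscle sum was 3023 CPM in control 2 against 19.2 to 316 CPM in the other controls, and 273 CPM in day 3 graft 1 against 2.09 to 5.52 CPM in the other day 3 grafts. The epidermis sum was 158 CPM in control 1 and at most 15.5 CPM in the other controls. The part of these markers in the results below was not tested. In whole tissue, more cells of a type and more RNA per cell cannot be told apart.

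At day 3, 8 of the 9 genes were higher in the grafts than in control fat and none was lower, where 30.1% of the 16051 tested genes were called higher. A gene was called when its adjusted p in limma-voom was under 0.05. The median log2 fold change of the 9 genes was 2.53, against -0.01 over all tested genes. In 7 of the 9 genes every day 3 graft lay above every control, which held for 20.6% of tested genes. Serpine2 was the gene not called. At day 7, 8 of 9 genes were again higher, where 32.3% of tested genes were, and this time Thbd was the gene not called. The day 7 median was 2.47 against 0.03 over all tested genes, and 6 of 9 genes had groups that did not overlap, where 22.8% of tested genes did. Both comparisons use the same 5 control samples. Without control 2, control 4, day 3 graft 1 and day 7 graft 5, the libraries that stood apart in earlier work on these data, the counts were again 8 and 8.

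**Figure D1:**
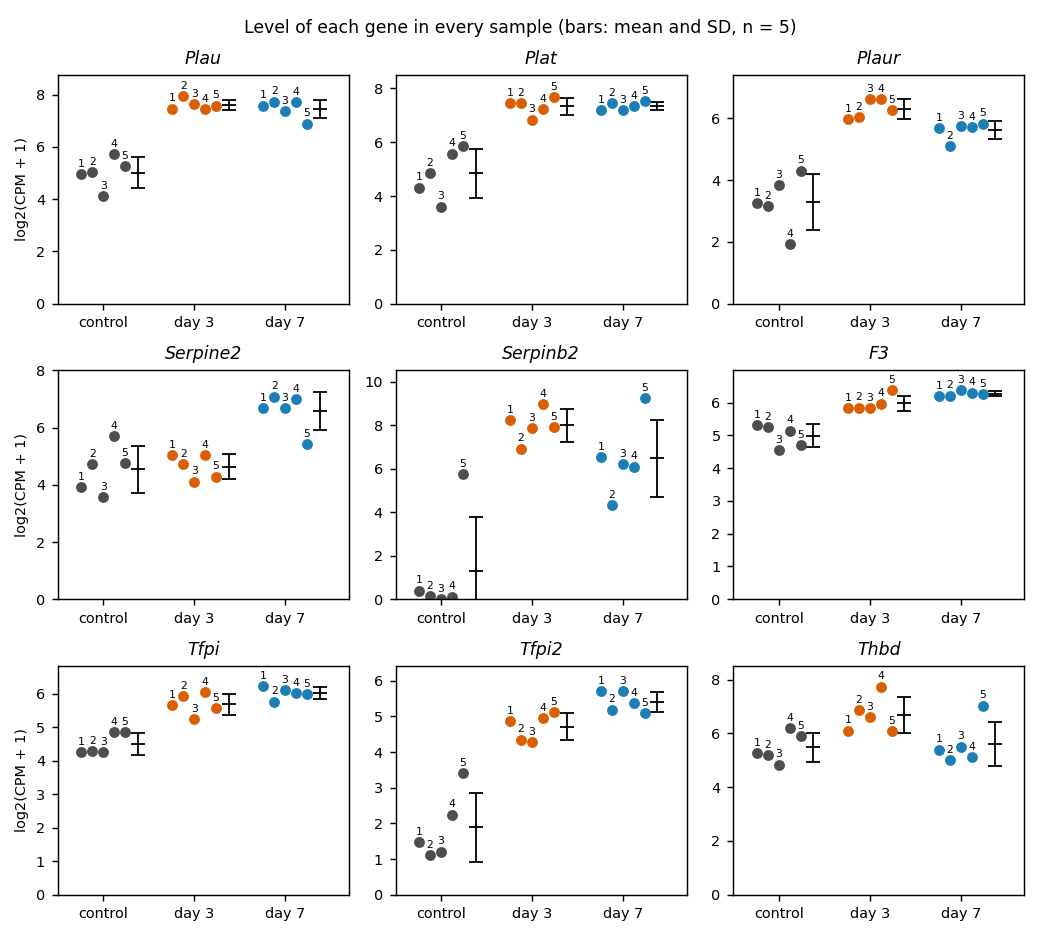
Level of each of the 9 genes as log2(CPM + 1) in the 5 controls (grey), 5 day 3 grafts (orange) and 5 day 7 grafts (blue); numbers name the sample, and bars give the mean and SD on that log scale. Control 5 stands alone among controls for Serpinb2 at 53.3 CPM, and day 7 graft 5 stands alone in its group for Serpinb2 at 597 CPM and Thbd at 129.7 CPM.

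Plau, the gene of urokinase (ENSMUSG00000021822; mm10 chromosome 14, 20836660 to 20843385, plus strand), was higher in the grafts at both times. Its level was 30.4, 31.8, 16.4, 51.9 and 37.4 CPM in controls 1 to 5. In day 3 grafts 1 to 5 it was 176, 243, 199, 172 and 191 CPM, and in day 7 grafts 1 to 5 it was 191, 212, 163, 209 and 118 CPM. Every graft was above every control, and graft 5 was the lowest of day 7. The means were 33.6 ± 12.8 CPM (SD, n = 5) in controls, 196 ± 28.5 at day 3 and 179 ± 38.9 at day 7. Plau rose by a log2 fold change of 2.63 ± 0.25 (SE, adjusted p = 1.15e-06) at day 3 and 2.47 ± 0.25 (adjusted p = 1.63e-06) at day 7. Between the graft ages it differed by -0.15, with a 95% interval of -0.70 to 0.39 (adjusted p = 0.800).

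Plat, the gene of the tissue-type activator (ENSMUSG00000031538; chromosome 8, 22757727 to 22782844, plus strand), moved by nearly the same amounts. Controls 1 to 5 had 18.9, 27.7, 11.2, 46.7 and 57.4 CPM. Day 3 grafts 1 to 5 had 173, 175, 114, 149 and 204 CPM, and day 7 grafts 1 to 5 had 145, 176, 146, 162 and 184 CPM. No graft reached down to the controls, whose values ran from 11.2 CPM in control 3 to 57.4 CPM in control 5. Plat rose by 2.53 ± 0.34 on the log2 scale (adjusted p = 2.24e-05) at day 3 and by 2.55 ± 0.34 (adjusted p = 2.01e-05) at day 7. The difference between day 7 and day 3 was 0.02, with an interval of -0.71 to 0.75 (adjusted p = 0.986). Its sign turned under several settings, the lowest value being -0.11.

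Plaur, the gene of the urokinase receptor (ENSMUSG00000046223; chromosome 7, 24462484 to 24475968, plus strand), was higher than in controls at both times, and its groups formed 3 separate levels. It stood at 8.48, 8.01, 13.4, 2.78 and 18.8 CPM in controls 1 to 5. Day 3 grafts 1 to 5 held 62.1, 64.3, 98.2, 97.8 and 76.2 CPM. Day 7 grafts 1 to 5 held 50.4, 33.1, 52.7, 51.7 and 56.0 CPM. All day 7 grafts were therefore above all controls and below all day 3 grafts, although graft 2 was well under the other day 7 samples. The log2 fold change was 3.20 ± 0.36 (adjusted p = 4.56e-06) at day 3 and 2.49 ± 0.36 (adjusted p = 3.56e-05) at day 7. From day 3 to day 7 the difference of -0.70 ± 0.28 did not pass the threshold (adjusted p = 0.165). It passed with sample quality weights (-0.77, adjusted p = 0.00599), with the 2 graft groups fitted alone (-0.72, adjusted p = 0.0312), without control 4 (-0.71, adjusted p = 0.0347) and without the 4 libraries named above (-0.87, adjusted p = 0.0162). These settings also called more of all tested genes between the graft ages: 22.8% with quality weights, 9.20% with the graft groups alone, 9.64% without control 4 and 17.1% without the 4 libraries, against 4.88% in the fit of all samples. Leaving out day 7 graft 5, as done for other genes below, gave 9.35%, and leaving out control 5 gave 5.80%.

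Of the inhibitor genes, Serpinb2 was higher at both times, and Serpine2 was higher at day 7 and not called at day 3. Serpine2 (ENSMUSG00000026249; chromosome 1, 79794197 to 79861180, minus strand) encodes a secreted serpin that inhibits urokinase, the tissue-type activator, thrombin and plasmin. Its values were 14.2, 25.2, 10.98, 51.5 and 26.0 CPM in controls 1 to 5 and 31.7, 25.4, 16.2, 32.0 and 18.5 CPM in day 3 grafts 1 to 5. At day 7 grafts 1 to 5 had 101, 135, 102, 126 and 42.1 CPM. The day 3 values lay inside the range of the controls, while 4 day 7 grafts were above every other sample and graft 5 was below control 4. The day 3 change was 0.11 ± 0.40, with a 95% interval of -0.75 to 0.96 (adjusted p = 0.833), and it turned negative without control 1 (-0.06) or control 3 (-0.17). Serpine2 rose by 2.08 ± 0.40 (adjusted p = 0.000401) at day 7 against control. It was also higher at day 7 than at day 3, by 1.97 ± 0.38 (adjusted p = 0.0111), from 24.8 ± 7.28 CPM to 101 ± 36.1 CPM (SD, n = 5 each).

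Serpine2 was the 1 gene of the 9 called between the graft ages, where 3.18% of the 16051 tested genes were called higher at day 7 and 1.71% lower. It was also the 1 gene whose day 7 samples all lay above the day 3 samples, as for 4.56% of tested genes, and Plaur was the 1 gene whose day 7 samples all lay below, as for 3.33%. Without day 7 graft 5 the Serpine2 difference was 2.26 (adjusted p = 0.0014). Several markers of mural cells, the contractile cells around vessels, moved beside it. Of the 6 mural markers, 4 were higher at day 7 than at day 3. Against control, 1 of the 6 was higher and 2 lower at day 3, and 3 were higher and 1 lower at day 7. The sum of the 6 was 300 to 379 CPM in controls, 216 to 424 CPM at day 3 and 356 to 1297 CPM at day 7. Graft 5 was the lowest of day 7 in both the mural sum and Serpine2. The part of these cells in the Serpine2 difference was not tested.

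Serpinb2 (ENSMUSG00000062345; chromosome 1, 107511423 to 107535478, plus strand) encodes a mostly intracellular urokinase inhibitor known from activated macrophages. It was nearly silent in 4 controls, at 0.314, 0.116, 0 and 0.0842 CPM in controls 1 to 4, but stood at 53.3 CPM in control 5. Day 3 grafts 1 to 5 had 301, 119.5, 232, 502 and 240.2 CPM. Day 7 grafts 1 to 5 had 90.2, 18.9, 72.5, 67.2 and 597 CPM. Every day 3 graft was above control 5, whereas day 7 graft 2 was below it and day 7 graft 5 was the highest of all 15 samples. Serpinb2 rose by 9.45 ± 2.00 on the log2 scale (adjusted p = 0.000954) at day 3 and by 7.93 ± 1.99 (adjusted p = 0.00316) at day 7. A fold against controls near 0 rests on the 0.5 counts that voom adds: it was 11.26 at day 3 and 9.73 at day 7 without control 5, and 8.40 and 6.87 without control 3. Over all 26 alternatives it ranged from 6.30 to 11.26 at day 3 and from 4.91 to 9.73 at day 7, the lowest values being those on log2(TPM + 1). The group means were 10.8 ± 23.8 CPM in controls, 279 ± 141 at day 3 and 169 ± 241 at day 7.

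Control 5 and day 7 graft 5 also differed from their groups in other markers. In control 5 the macrophage sum was 3998 CPM against 1445 to 1826 CPM in the other controls, and the neutrophil sum was 166 CPM against 29.5 to 44.1 CPM. The fibroblast sum of control 5 was 4321 CPM against 1063 to 3586 CPM. The platelet, mast cell and mesothelial sums were also highest in that control. Control 5 was also the highest control for Plaur, Plat and Tfpi2. In day 7 graft 5 the platelet sum was 902 CPM against 198 to 381 CPM in the other day 7 grafts. Nearly all of that platelet sum was Pf4 (794 CPM) and Ppbp (102 CPM). The macrophage sum was 13970 CPM against 9692 to 11422 CPM. The mesothelial sum of that graft was 65.9 CPM against 2.10 to 18.2 CPM. Its adipocyte, epidermis and lymph node sums were also the highest of day 7. Its mural, endothelial and skeletal muscle sums were the lowest. Day 3 graft 4, the highest of day 3 for Serpinb2, also had the highest neutrophil sum of day 3. Its macrophage sum was 8937 CPM, within the 5369 to 12152 CPM of the other day 3 grafts. The part of these markers in the Serpinb2 values was not tested. Between day 7 and day 3 the Serpinb2 difference was -1.53 ± 0.78 (adjusted p = 0.290), which turned into a call when day 7 graft 5 was left out (-2.23, adjusted p = 0.0359) or samples were weighted by quality (-2.10, adjusted p = 0.0109). The Serpinb2 locus overlaps Serpinb10 on the same strand, but Serpinb10 held 705 estimated counts over all samples, 1.17% of those of Serpinb2.

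Set against each other per gene length, activator and inhibitor transcripts had overlapping ratios in the 3 groups when both serpins were summed. The ratio of Plau plus Plat to Serpine2 plus Serpinb2 was formed within each library from the deposited TPM (levels per transcript length, scaled to the same sum in each library). On the log2 scale it was 0.86 ± 0.60 (SD, n = 5) in controls, 0.03 ± 0.83 at day 3 and 0.25 ± 0.98 at day 7, and the ranges of all 3 groups overlapped. Activators exceeded the inhibitors in 4 of 5 controls, 3 of 5 day 3 grafts and 4 of 5 day 7 grafts. Day 7 graft 5 was at -1.44, against 0.44 to 1.11 in the other day 7 grafts. The ratio covers only these 4 genes. Other inhibitors of the activators are not part of it.

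The composition of the inhibitor side differed between the groups. Serpinb2 made up 0% to 7.49% of the summed TPM of Serpine2 and Serpinb2 in controls 1 to 4 and 70.3% in control 5. At day 3 its share was 83.8% to 94.7%. At day 7 it was 13.5% to 48.8% in grafts 1 to 4 and 93.7% in graft 5. With Serpine2 alone as the inhibitor, the log2 ratio of activators was 0.74 to 1.70 in controls, 3.18 to 4.26 at day 3 and 1.21 to 2.54 at day 7. Every day 3 graft was thus above every sample of the other groups, at 9.07 to 19.1 activator transcripts for each Serpine2 transcript, against 1.67 to 3.24 in controls and 2.32 to 5.83 at day 7. These ratios are sums over the chosen genes and were not tested. The 2 activators kept close to each other throughout: the log2 ratio of Plau to Plat was 0.32 ± 0.51 in controls, 0.41 ± 0.36 at day 3 and 0.24 ± 0.43 at day 7.

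**Figure D2:**
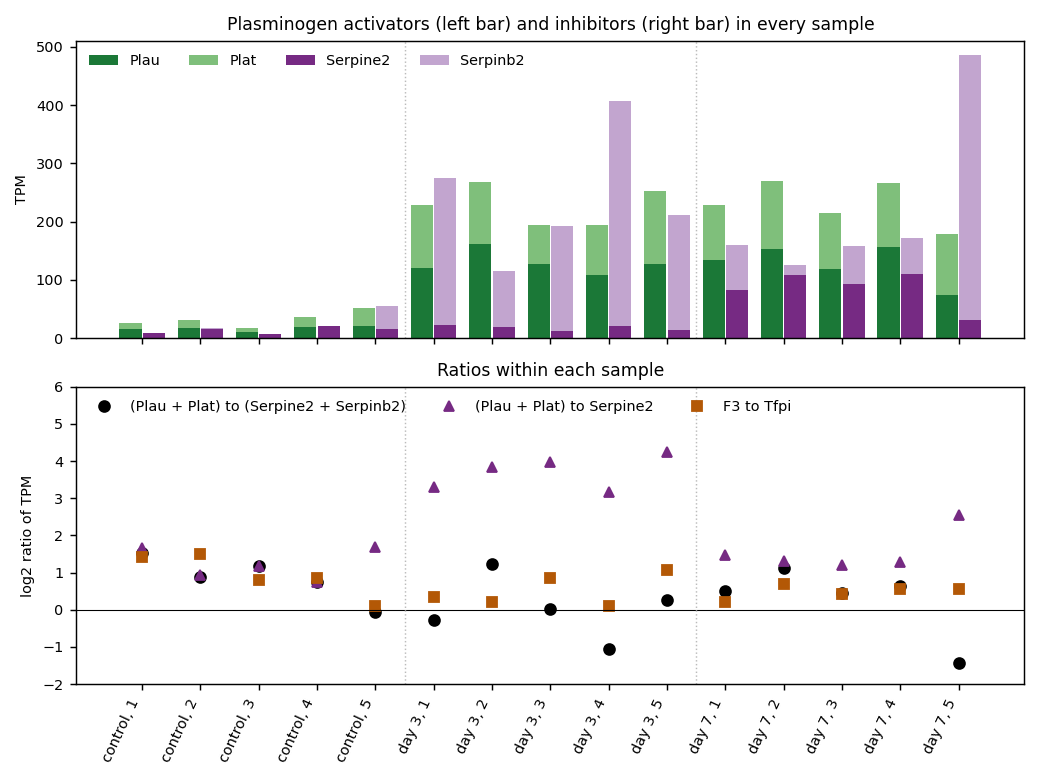
Upper panel: TPM of the activators Plau and Plat (left stacked bar) and the inhibitors Serpine2 and Serpinb2 (right stacked bar) in each of the 15 samples. Lower panel: log2 ratios of TPM within each sample; the ratio to Serpine2 alone lies at 3.18 to 4.26 in the day 3 grafts and at or below 2.54 in all other samples, while the ratio to both inhibitors overlaps among the groups.

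F3, the gene of tissue factor (ENSMUSG00000028128; chromosome 3, 121723537 to 121735048, plus strand), rose less than the activators. Its SD was 23.6% of the mean in controls, 18.2% at day 3 and 5.17% at day 7. Controls 1 to 5 had 38.7, 37.0, 22.3, 34.4 and 24.8 CPM. Day 3 grafts 1 to 5 had 55.8, 56.4, 56.2, 61.6 and 82.3 CPM, and day 7 grafts 1 to 5 had 71.9, 73.2, 81.8, 77.8 and 75.2 CPM. Every graft was above every control, and day 3 graft 5 was the highest of all samples. The log2 fold change was 1.01 ± 0.15 (adjusted p = 6.20e-05) at day 3 and 1.31 ± 0.16 (adjusted p = 6.25e-06) at day 7. The difference of 0.30 ± 0.15 between the graft ages did not pass (adjusted p = 0.285).

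Tfpi (ENSMUSG00000027082; chromosome 2, 84432855 to 84476775, minus strand), the inhibitor of the tissue factor complex, rose beside it. It stood at 18.1, 18.4, 18.0, 28.1 and 28.0 CPM in controls 1 to 5, at 49.8, 59.7, 37.0, 65.2 and 46.5 CPM in day 3 grafts 1 to 5, and at 74.0, 53.4, 67.8, 64.2 and 62.1 CPM in day 7 grafts 1 to 5. The grafts did not overlap the controls at either time. Tfpi rose by 1.22 ± 0.18 (adjusted p = 4.43e-05) at day 3 and by 1.55 ± 0.18 (adjusted p = 4.96e-06) at day 7, with a difference of 0.34 ± 0.17 between these times (adjusted p = 0.272). Per gene length, F3 exceeded Tfpi in all 15 samples, by as little as 1.06-fold in control 5. In CPM, which is not per gene length, F3 was below Tfpi in control 5, day 3 grafts 2 and 4 and day 7 graft 1. Their log2 TPM ratio was 0.93 ± 0.57 in controls, 0.51 ± 0.43 at day 3 and 0.49 ± 0.19 at day 7, and the groups overlapped.

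Tfpi2 (ENSMUSG00000029664; chromosome 6, 3962595 to 3988919, minus strand) changed more than its relative. Its control values were 1.78, 1.16, 1.31, 3.75 and 9.61 CPM. Day 3 grafts 1 to 5 had 28.1, 19.4, 18.4, 30.2 and 34.1 CPM, and day 7 grafts 1 to 5 had 51.4, 35.6, 51.1, 40.5 and 33.3 CPM. No graft overlapped the controls, and day 7 graft 5 alone of its group lay below the highest day 3 graft. The log2 fold change was 3.29 ± 0.43 (adjusted p = 1.74e-05) at day 3 and 4.01 ± 0.43 (adjusted p = 2.57e-06) at day 7. Between the graft ages it was 0.72 ± 0.26 (adjusted p = 0.125), which passed with sample quality weights (0.75, adjusted p = 0.00979), with the 2 graft groups fitted alone (0.70, adjusted p = 0.0448) and without control 5 (0.72, adjusted p = 0.0492).

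Thbd, the gene of thrombomodulin (ENSMUSG00000074743; chromosome 2, 148404466 to 148408188, minus strand), was higher at day 3 only by a narrow margin. Controls 1 to 5 had 37.7, 35.7, 27.6, 71.7 and 58.5 CPM. Day 3 grafts 1 to 5 had 67.8, 115, 96.6, 213 and 66.6 CPM, and day 7 grafts 1 to 5 had 41.1, 30.8, 44.5, 33.9 and 129.7 CPM. Control 4 reached into the day 3 range, and 4 of the day 7 grafts lay within the control range. The day 3 log2 fold change was 1.21 ± 0.41 (adjusted p = 0.0189). The call ended without control 3 (1.03, adjusted p = 0.0507) or without day 3 graft 4 (0.96, adjusted p = 0.0504). Day 3 graft 4 also had the highest neutrophil sum (488 CPM) and platelet sum (1698 CPM) of day 3. Nearly all of that platelet sum was Pf4 (973 CPM) and Ppbp (720 CPM). The part of these markers in the Thbd value of this graft was not tested.

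At day 7 the Thbd change against control was 0.13 ± 0.40, with an interval of -0.73 to 0.99 (adjusted p = 0.792). It was -0.23 without day 7 graft 5. Between day 7 and day 3 it was -1.08 ± 0.41 (adjusted p = 0.145), which became a call when day 7 graft 5 was left out (-1.44, adjusted p = 0.0162), without the 4 libraries (-1.61, adjusted p = 0.00604) or with sample quality weights (-1.35, adjusted p = 0.00454). Endothelial cells are the best known source of thrombomodulin. The 9 endothelial markers were all detected, and their sum was 509 to 699 CPM in controls, 511 to 1707 CPM at day 3 and 702 to 1314 CPM at day 7. Of these markers, 6 rose at day 3 and 5 at day 7. Day 7 graft 5, the highest of its group for Thbd, was the lowest of its group for the endothelial sum. The part of endothelial cells in the Thbd values was not tested.

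**Figure D3:**
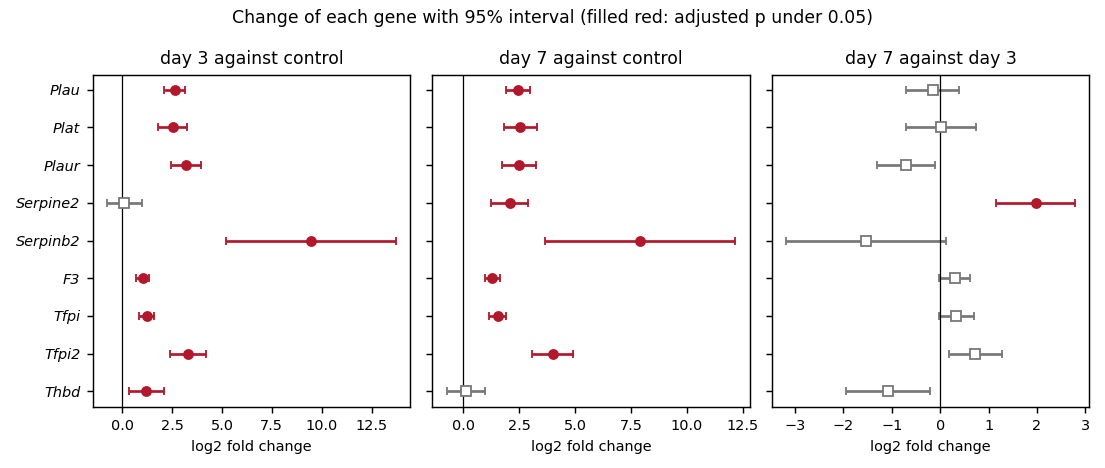
Log2 fold change of each of the 9 genes (points) with its 95% interval (bars) in the 3 comparisons; filled red points had an adjusted p under 0.05 in limma-voom. Serpine2 is not called at day 3, Thbd is not called at day 7, and Serpine2 alone is called between day 7 and day 3, at 1.97.

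The order of the 9 genes by mean TPM differed between control fat and grafts. In controls F3 was the highest at 23.5 ± 4.73 TPM (SD, n = 5), before Plau (17.2), Plat (15.3), Thbd (14.4), Serpine2 (13.9), Tfpi (12.5), Plaur (11.6), Serpinb2 (7.92) and Tfpi2 (3.15). Control 5 carried the Serpinb2 mean: without it the mean was 0.338 TPM, below Tfpi2 at 1.66 TPM and the lowest of the 9. At day 3 Serpinb2 led at 222 ± 107 TPM, followed by Plau (129), Plat (98.6), Plaur (90.1), F3 (55.2), Thbd (43.8), Tfpi (38.9), Tfpi2 (29.0) and Serpine2 (17.7). At day 7 Serpinb2 had the highest mean, 136 ± 180 TPM, which day 7 graft 5 raised, and Plau (127), Plat (105), Serpine2 (84.9), F3 (72.0), Plaur (60.0), Tfpi (51.6), Tfpi2 (51.0) and Thbd (22.9) followed. Without graft 5 the day 7 mean of Serpinb2 was 55.6 TPM, in place 6 of 9, and Plau led at 141 TPM. With all samples, those of all 8 pairs of neighbours in this order overlapped in each group.

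Around these 9 genes, 47 other genes of fibrinolysis and coagulation were listed, and 31 of them passed the filter. At day 3, 17 of the 31 were higher and 6 lower, with a median log2 fold change of 1.13. At day 7, 19 were higher and 6 lower, with a median of 1.34. Shares of 30.1% and 32.3% of all tested genes were called higher at these times, and 30.2% and 28.4% lower.

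F7, the gene of the clotting factor that tissue factor binds, had the largest rise of the list at both times. It went from 0.539 ± 0.550 CPM in controls to 21.1 ± 4.51 at day 3, a log2 fold change of 5.71 ± 0.49 (adjusted p = 4.78e-07), and to 21.3 ± 3.38 at day 7, a change of 5.73 ± 0.48 (adjusted p = 3.71e-07). F10, the gene of the factor that this complex activates, rose from 2.09 to 56.0 CPM at day 3 (5.28 ± 0.86, adjusted p = 0.000110) and to 31.7 CPM at day 7 (4.45 ± 0.86, adjusted p = 0.000456). Control 5 was the highest control for both, at 1.47 CPM for F7 and 7.24 CPM for F10, and all grafts were above it. Both genes are best known from the liver. The hepatocyte markers summed to 19.5 to 47.5 CPM in controls, 1.16 to 5.55 CPM at day 3 and 0.374 to 0.709 CPM at day 7. Most of that sum was Alb, at 12.5 to 46.1 CPM in controls. Control 4 was the highest control for the hepatocyte sum and for the adipocyte sum. Of these 5 markers 2 passed the filter, and both fell at each time. Apoa1 and Ttr were at 0 in all grafts, but they were also near 0 in controls, at most 0.295 and 0.0473 CPM. The cells that gave the F7 and F10 transcripts were not tested.

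Anxa2, a cell surface receptor that brings plasminogen and the tissue-type activator together, was the third gene named at day 3. It rose from 396 to 2610 CPM, a log2 fold change of 2.84 ± 0.26 (adjusted p = 8.87e-07). Mrc2, a collagen receptor that associates with the urokinase receptor, was the third at day 7 and rose from 20.7 to 188 CPM (3.21 ± 0.22, adjusted p = 7.66e-08). F2r, the thrombin receptor, was the 1 listed gene of 31 called between the graft ages, where 3.18% of all tested genes were called higher. It was 21.3 ± 2.73 CPM at day 3 and 57.3 ± 11.1 CPM at day 7, a difference of 1.42 ± 0.19 (adjusted p = 0.00142), and all day 7 grafts were above all day 3 grafts.

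Serpina10, the gene of the protein Z-dependent inhibitor of factor X, fell furthest among the related genes that passed the filter. It stood at 13.1, 9.98, 22.4, 0.842 and 10.8 CPM in controls 1 to 5 and at 0 in all 10 grafts. It therefore passed the filter through the controls alone. Fgb and Fgg, also at 0 in all grafts but lower in controls, failed it and were not ranked. With a floor of 3 counts over each group, it was at least 498-fold lower at day 3 and at least 524-fold lower at day 7. The lymph node marker sum moved beside it: it was 1333, 1267, 1722, 103 and 949 CPM in controls 1 to 5, so that control 3 was the highest and control 4 the lowest in both, and it was at most 9.40 CPM in the grafts. The part of these cells in the Serpina10 values was not tested. Placing Serpina10 at this bound left the list medians at 1.13 and 1.34. Vtn, the gene of vitronectin, a matrix protein that the urokinase receptor binds, fell by 2.20 on the log2 scale at day 3 (adjusted p = 0.000118) and by 2.50 at day 7 (adjusted p = 4.82e-05). Plgrkt, a plasminogen receptor, fell by 0.25 at day 3 (adjusted p = 0.0196), a call that 5 of its 26 alternatives ended. Vldlr, a receptor that clears complexes of activator and serpin, fell by 1.28 at day 7 (adjusted p = 0.0228), although day 7 graft 5 had 138 CPM against 19.5 to 33.7 CPM in the other day 7 grafts, and 5 of its 26 alternatives ended that call.

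The 16 listed genes that failed the filter included Plg, the substrate of both activators, which had 2 estimated counts over all 15 samples. The fibrinogen genes Fga, Fgb and Fgg, the prothrombin gene F2, Proc, Serpinf2 and Cpb2 were also among them, as were Serpind1, Serpina5, F11, F12, F13b, Adamts13, Habp2 and Hrg. Most of these are made by the liver.

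**Figure D4:**
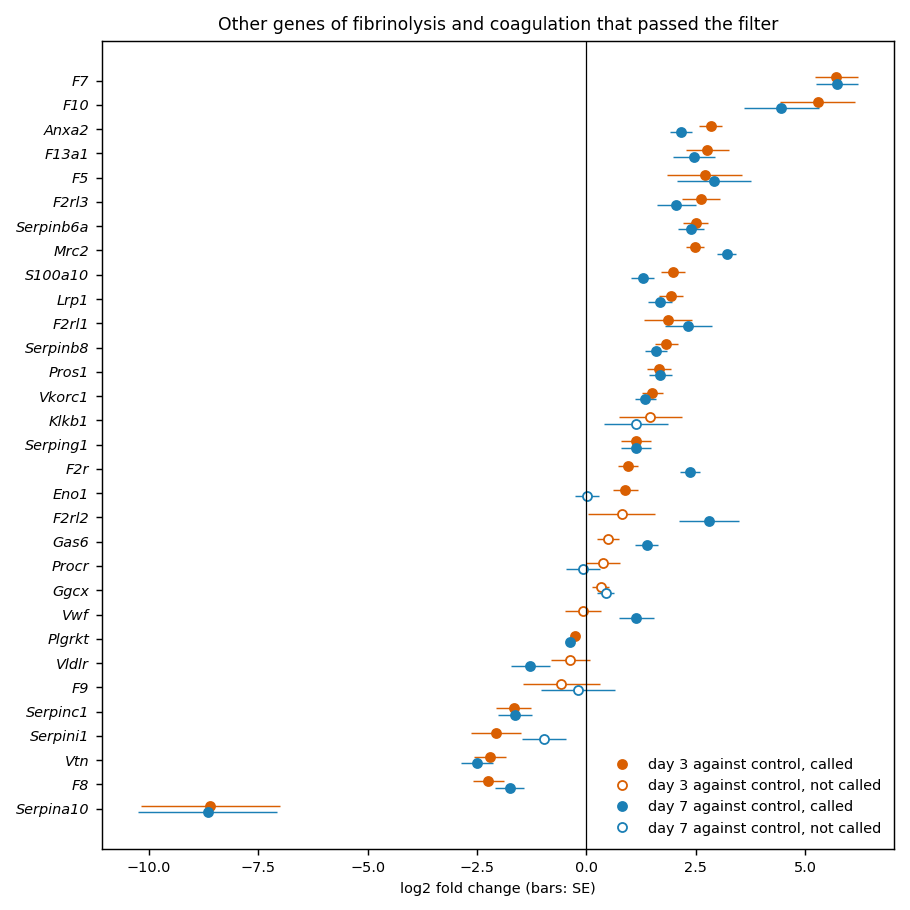
Log2 fold change against control (points) with SE (bars) of the 31 tested genes among the 47 other fibrinolysis and coagulation genes, at day 3 (orange) and day 7 (blue); filled points were called. F7 and F10 stand furthest to the right, and Serpina10, with 0 counts in all grafts, furthest to the left, where its fitted value depends on the 0.5 counts added.

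For each of the 9 genes the 2 most similar profiles over the 15 samples were looked up among 10581 genes, by the root mean square (RMS) difference of centred log2(CPM + 1). This measure is small for genes that vary little, so the RMS values are not ranked between the 9 genes. Tfpi was closest to Cnrip1 (0.167) and Lix1l (0.190). F3 was closest to Stx2 (0.171) and St6galnac6 (0.199), and Plat to Ndrg4 (0.196) and Cgref1 (0.226). Plau was closest to Map1b (0.256) and Rhoc (0.317), and Plaur to Capg (0.260), an actin capping protein of macrophages, and Basp1 (0.338). The nearest profiles to Tfpi2 were Col5a2 (0.270), a fibrillar collagen chain, and Loxl3 (0.276), a lysyl oxidase of the matrix. For Serpine2 they were Pcdh18 (0.314) and Clec11a (0.407), and for Thbd Nupr1 (0.296) and Xdh (0.405). For Serpinb2, the gene that varied most, Timp1, an inhibitor of matrix metalloproteases, was among the 2 nearest at an RMS of 0.767. Divided by the SD of each gene's own log2 values, the RMS of Timp1 was 0.225, that of Cnrip1 to Tfpi 0.231 and that of Ndrg4 to Plat 0.148. None of the 9 genes was among the 2 nearest of another.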

How the data were processed

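Per the labels' protocols, Trizol and RNeasy columns gave the RNA, and a TruSeq stranded mRNA kit gave libraries for 151 bp paired-end reads. STAR 2.7.1a, RSEM 1.3.1, cutadapt 2.8 and the build mm10 are listed, with no role or order, in the submitters' processing notes. Which annotation release was used is not given there or in the labels. The deposited matrix gives estimated counts, RPKM and TPM for 55471 genes, per the file headers. The authors' count columns are written with digit separators, which were removed on reading, and the values were tested with limma-voom. The deposited TPM were used where levels of different genes were compared; the deposited RPKM were not used in a test. All 45 value columns matched a sample's label, and no 2 count columns were identical.

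Genes were kept with at least 0.389 CPM (10 counts in the median library) in at least 5 samples and 15 counts in all. Scaling used the trimmed mean of M-values, written out for this work (trims of 30% and 5%; factors 0.746 to 1.14). All 15 samples entered 1 fit of 3 group means (limma 3.58.1 in R 4.3.3; voom adds 0.5 counts), with Benjamini-Hochberg adjustment over 16051 genes and calls at an adjusted p under 0.05. The fit was tested on simulated data, in which most changes of 2-fold or less were missed. A gene that was not called may therefore still differ. Figures were drawn with matplotlib 3.10.9.

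The 9 genes, the 47 related genes, the 13 marker lists (88 genes) and the alternatives were chosen with earlier results of these data known. Text names all 9 genes. From the related genes it names, per comparison, the 3 called genes with the largest rise and the 3 with the largest fall among those of at least 10 CPM in 1 group; the related genes that failed the filter are named outside this rule, after their values were seen. For each of the 9 genes it names the 2 nearest profiles, except Serpinb2, for which it names 1 of them. A few other single genes are not reported here. No sequences were used.

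Alternatives were 3 other scalings (upper quartile, median of ratios, library totals), a filter at 1 CPM, no filter, limma-trend on log2(CPM + 1) and log2(TPM + 1), sample quality weights, a replicate block, only the groups compared, leaving out each sample in turn, and leaving out 4 libraries together. For the ratios of TPM, a pseudocount of 0.1, scaled CPM in place of TPM, and leaving out each sample were tried. The group differences of the ratios under these settings are not reported here.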

Additional observations from a re-analysis of the deposited data

Results flagged for a closer look

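Each gene's 5 samples of a group were checked for 1 sample lying far from the others, where the gap to the nearest sample exceeds 0.71 of the range. This made 27 checks, of which 5 met it; chance alone meets it in about 1 in 20. Serpinb2 was 53.3 CPM in control 5 and 597 CPM in day 7 graft 5. Thbd was 129.7 CPM in day 7 graft 5. Plaur was 33.1 CPM in day 7 graft 2, the lowest of its group, and F3 was 82.3 CPM in day 3 graft 5, the highest of its group. Day 7 graft 5 thus accounted for 2 of the 5.

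The change of Serpine2 against control differed between the graft ages: the day 7 change exceeded the day 3 change by 1.97 on the log2 scale (adjusted p = 0.0111). Since both use the same controls, this is the direct difference between day 7 and day 3 grafts.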

How the results depend on the processing

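Over 26 alternatives for each of 27 changes of the 9 genes, 676 results kept direction and side of the threshold, 12 newly passed it, 2 no longer passed it and 12 changed sign. The 12 sign changes were in changes that were not called: Serpine2 at day 3 (-0.06 without control 1, -0.17 without control 3, range -0.17 to 0.44 with 1 sample left out), Thbd at day 7 (-0.13 without the 4 libraries, -0.05 without control 3, -0.23 without day 7 graft 5, range -0.23 to 0.31 with 1 sample left out), and Plat between day 7 and day 3 (-0.0098 with median-of-ratios scaling, -0.0079 with no filter, -0.028 without the 4 libraries, range -0.11 to 0.10 with 1 sample left out). Of the 9 genes, 1 was called between day 7 and day 3, against 5 with sample quality weights, 3 with only the graft groups fitted, 3 without the 4 libraries and 1 to 3 with 1 sample left out. Of all tested genes 4.88% were called, against 22.8%, 9.20%, 17.1% and 2.00% to 9.64% under these settings. Of the 31 related genes, 1 was called, against 2 with upper quartile scaling, library totals, no filter or limma-trend on CPM, 4 on TPM, 10 with sample quality weights, 4 with only the graft groups fitted, 9 without the 4 libraries and 1 to 5 with 1 sample left out, the 5 being without day 7 graft 5. The all-gene share was 5.22%, 4.24%, 2.46% and 4.93% under the first 4 of these and 4.41% on TPM. The cause of these differences was not tested. Serpina10 failed the filter in 7 alternatives, 5 of which left out 1 control. Log2(TPM + 1) moved the median of all genes by 0.28 at day 3 and 0.38 at day 7 and the share of calls that were higher from 50.0% to 68.0% and from 53.2% to 74.1%; no call of the 9 genes against control changed with it.

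With the replicate number as a block, 8, 8 and 1 of the 9 genes were called at day 3, day 7 and between them, as without it, and 23, 25 and 3 of the related genes. The block lowered the Serpinb2 change to 7.54 ± 1.26 at day 3 and 5.72 ± 1.26 at day 7. Samples with the same number did not deviate together throughout. Their correlations were -0.158 to 0.26 (control and day 3), -0.109 to 0.173 (control and day 7) and -0.183 to 0.341 (day 3 and day 7). Of 5 correlations, 1, 2 and 2 were over 0.1, and 1, 0 and 1 of 5 samples correlated best with their own number.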

Other observations

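The deposited matrix also lists protein families. Plau and Plat share the trypsin and kringle families, Serpine2 and Serpinb2 the serpin family, and Tfpi and Tfpi2 the Kunitz inhibitor family, while no family was listed for F3. Of 32 other genes with the serpin family, 16 were tested: 6 were higher and 6 lower at day 3, and 6 were higher and 5 lower at day 7. Of 110 other genes with the trypsin family, 35 were tested, with 12 higher and 5 lower at day 3 and 11 higher and 7 lower at day 7. Of 14 other genes with the Kunitz family, 8 were tested, with 2 higher and 2 lower at day 3 and 3 higher and 2 lower at day 7. Over all tested genes 30.1% were higher and 30.2% lower at day 3, and 32.3% were higher and 28.4% lower at day 7.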
